A study of Homo sapiens with 4 samples.

Results

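Chromosome 8 carries 2 arms that are often altered in opposite directions in cancers of the head and neck. The short arm, 8p, is frequently lost, and the long arm, 8q, is frequently gained, often with band 8q24 and its oncogene MYC, a transcription factor of cell growth. Chromatin immunoprecipitation with sequencing recovers the DNA bound by a protein, and a peak is a place where the recovered sequence tags pile up above their surroundings. Tags from unbound DNA are recovered as well, and their number depends on how much DNA of a place enters the reaction. The chromosome 8 peaks were therefore described with the tag density around them.

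The peaks came from OECM1, a cell line from a head and neck cancer, grown in culture. Control cells had received Cas9-ctrl and the edited cells ARID3B-Cas9, in which the Cas9 nuclease is directed at ARID3B, a transcription factor that binds AT-rich DNA. The titles of the edited samples speak of a knockdown and the title of the study of a knockout, and whether the edited cells came from 1 clone is not given in the sources used here. From each kind of cell, DNA was recovered with an antibody to ARID3B (Bethyl) or to KDM4C (Novus), a histone demethylase that acts on methylated lysine of histone H3. Each of the 4 combinations had 1 library, with no repeat and no input library.

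The members were all peaks in the 4 lists that lay wholly on 8p between 3 and 40.8 Mb or on 8q between 49.8 and 143.3 Mb of chromosome 8 (GRCh37), so they were chosen by position alone. There were 388 of them among 11483 peaks in all, 72 on 8p and 316 on 8q. The ARID3B antibody gave 16 peaks on 8p and 93 on 8q in control cells, and 31 and 135 in edited cells. The KDM4C antibody gave 11 on 8p and 39 on 8q in control cells, and 14 and 49 in edited cells. The lower bound of 8q cuts through a dense group of peaks. The nearest peak inside it, at chr8:49801279-49803694, held 297 tags at a fold enrichment of 3.78 with ARID3B in edited cells, and the nearest outside, at chr8:49782440-49784378, held 198 tags at 2.9-fold in the KDM4C library of edited cells. At the upper bound of 8p the nearest peak on either side held 9 tags. The rest of chromosome 8, which was not counted, held 40, 35, 29 and 32 peaks in the 4 lists (the ARID3B library of control cells and that of edited cells, then those of KDM4C in the same order, which is kept below), of which 34, 29, 25 and 30 lay around the centromere.

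The libraries held between 18015732 and 28249942 tags, and between 16209985 and 24439463 after tags at the same position were reduced to 1. Because each group had 1 library, no difference between groups could be tested against replicates. The exact 95% intervals given below cover counting error only, so an interval that leaves out a value shows a difference between these libraries and not between the conditions. Tags without molecular identifiers are not independent molecules, and the peaks that the intervals count lie partly in clusters, so the intervals may be too narrow.

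On 8p, peaks were sparse in the ARID3B libraries. There were 0.423 peaks per Mb in control cells (interval 0.242 to 0.687) and 0.820 in edited cells (0.557 to 1.16), against 0.946 and 1.45 over the 37 other autosomal arms trimmed in the same way. The 8p density was 0.447 times that of the other arms in control cells (0.255 to 0.728) and 0.567 times in edited cells (0.385 to 0.806), and 34 and 27 of the 37 arms were denser. Counted over whole arms up to the centromere, the control ratio was 0.713 (0.495 to 0.993). With the KDM4C antibody 8p had 0.291 and 0.370 peaks per Mb against 0.324 and 0.490 elsewhere. Those ratios, 0.899 (0.447 to 1.62) and 0.756 (0.412 to 1.27), held 1 within their intervals, so a shortage of KDM4C peaks on 8p was not detectable at 11 and 14 peaks.

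Over all listed peaks, the long arm was close to the other arms in all 4 lists. It had 0.995, 1.44, 0.417 and 0.524 peaks per Mb, which was 1.05 (0.845 to 1.29), 0.998 (0.834 to 1.19), 1.29 (0.909 to 1.78) and 1.07 (0.787 to 1.42) times the density of the other arms. At a caller's score (a log-scaled p-value) of at least 60, the KDM4C ratios were 2.15 (1.27 to 3.43) and 1.96 (1.26 to 2.92), while the ARID3B intervals held 1. At 100 the ARID3B ratios were 2.36 (1.19 to 4.27) and 2.82 (1.57 to 4.74), while the KDM4C intervals held 1. With peaks within 10 kb joined, the ARID3B ratio of edited cells was 0.792 (0.643 to 0.966). The density of 8q over that of 8p was 2.35 (1.37 to 4.28) and 1.76 (1.18 to 2.69) in the ARID3B libraries of control and edited cells. In the KDM4C libraries it was 1.43 (0.720 to 3.10) and 1.41 (0.769 to 2.78). All 4 ratios were above 1, and the KDM4C intervals held 1. The ARID3B ratios depended on how peaks were counted. Over whole arms up to the centromere that of control cells was 1.43 (0.975 to 2.16), and with peaks within 10 kb joined that of edited cells was 1.32 (0.873 to 2.04). The KDM4C ratio of control cells was 0.898 over whole arms (0.552 to 1.5). On 16 other chromosomes with both arms the median of the same ratio was 1.04, 1.09, 1.11 and 1.13, and 3, 3, 6 and 5 of those chromosomes had a higher one than chromosome 8.

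**Figure D1:**
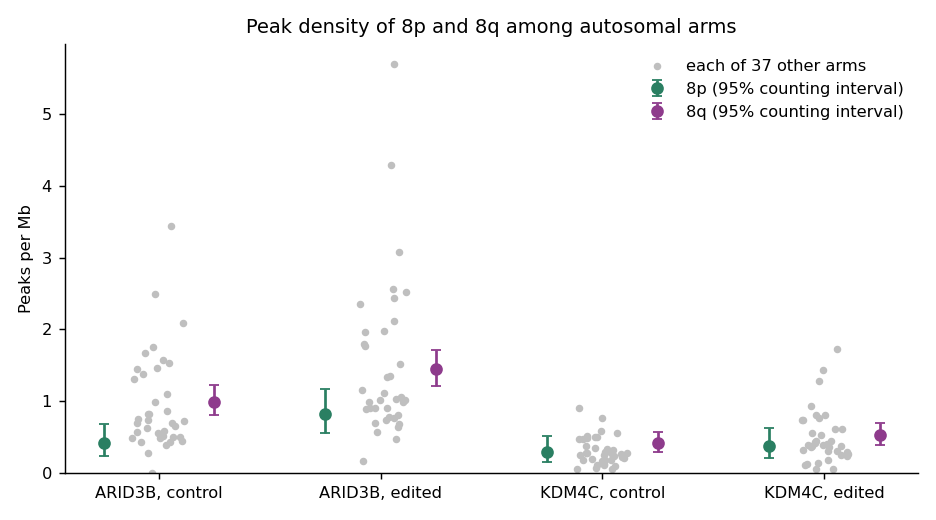
Peaks per Mb (y axis) in each of the 4 libraries (x axis), with 8p in green, 8q in purple, exact 95% counting intervals as bars, and each of the 37 other autosomal arms as a grey point. The 8p points of the ARID3B libraries, 0.423 and 0.820, lie low among the grey points, and the 8q points lie among them in all 4 libraries.

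More peaks were listed in edited than in control cells on both arms and with both antibodies, as on the rest of the autosomes. With the ARID3B antibody, the number on 8p in edited cells was 1.94 times that in control cells (1.03 to 3.79) and the number on 8q was 1.45 times (1.11 to 1.91), against 1.53 times over the other arms. Neither held in every count: over whole arms the 8p ratio was 1.34 (0.849 to 2.14), and with peaks within 10 kb joined the 8q ratio was 1.29 (0.954 to 1.76). With the KDM4C antibody the ratios were 1.27 (0.537 to 3.10) on 8p and 1.26 (0.808 to 1.97) on 8q, against 1.51. None of the 4 differed from the other arms beyond counting error: the arm ratio over that of the other arms was 1.27 (0.671 to 2.49) and 0.95 (0.720 to 1.26) for ARID3B and 0.841 (0.353 to 2.06) and 0.830 (0.528 to 1.31) for KDM4C. The edited to control ratio of ARID3B over that of KDM4C was 1.52 (0.498 to 4.59) on 8p and 1.16 (0.680 to 1.95) on 8q, so a difference between the antibodies was not detectable. In control cells there were 1.45 ARID3B peaks for each KDM4C peak on 8p and 2.38 on 8q, against 2.92 over the other arms, and the intervals of both arms over the others (0.216 to 1.19 and 0.550 to 1.23) held 1.

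The arms differed far more in the kind of peak they held. Every 8p peak was short and built on few tags: lengths ran from 180 to 406 bp, tags from 9 to 20 and fold enrichment from 7.56 to 19.12. The caller's score, a log-scaled p-value that gains 10 for each factor of 10 and had to reach 50, was under 60 for 87.5%, 74.2%, 63.6% and 64.3% of 8p peaks, and 1 of the 72 reached 100. On 8q, peaks reached 6505 bp and 863 tags, and 12.9%, 11.9%, 17.9% and 14.3% had a score of 100 or more, against 5.74%, 4.19%, 10.3% and 7.56% on the other arms. Median tags per 8q peak were 14, 25, 29 and 39, against 13, 11, 12 and 11 on the other arms.

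The tag density that the caller had taken as background at each peak was recovered from its tags and score. It is given as a multiple of the mean tag density of that library over the genome, which is also the lowest value the caller uses, and it was found for all 388 members. On 8p it never passed 1.36, 1.47, 1.46 and 1.58 times the mean in the 4 lists, and 9 of 16, 22 of 31, 7 of 11 and 9 of 14 peaks sat at the mean itself. No 8p peak had a background of 2 or more, and the exact intervals allow shares of up to 20.6%, 11.2%, 28.5% and 23.2% at these numbers. On 8q it was at least 5 times the mean at 21 of 93, 47 of 135, 11 of 39 and 21 of 49 peaks, that is 22.6% (14.5 to 32.4), 34.8% (26.8 to 43.5), 28.2% (15 to 44.9) and 42.9% (28.8 to 57.8). On the other autosomal arms the shares were 1.43%, 1.52%, 3.81% and 2.76%. No other arm held as many such peaks as 8q in any list: 8q had 39.6%, 47.5%, 27.5% and 39.6% of those on all autosomal arms, and the next arm had 9, 11, 8 and 8. The raised background was present with both antibodies and in both kinds of cell.

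These peaks were not spread along 8q. Joining peaks with a background of at least 2 that followed each other with gaps of at most 500 kb, and keeping runs of 5 peaks or more, gave 50 stretches on all autosomal arms, of which 5 were on 8q and 0 on 8p. This rule was set after the values had been seen. In order from the centromere, the 8q stretches ran from chr8:49801279-49928034 (22 peaks, median background 9.22), chr8:58118148-58123036 (5 peaks, 3.58) and chr8:86554930-86840865 (28 peaks, 4.52) to a pair in 8q24. The first of that pair, chr8:126452446-127548558, spanned 1096 kb and held 57 peaks, and the second, chr8:128268847-129366557, spanned 1098 kb and held 32. By number of peaks they were the first and second of the 50 stretches on all arms, followed by chr11:69044707-70307494 with 29. The second of the pair holds the MYC position at 128.75 Mb.

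The 5 stretches together held 32 of 93, 68 of 135, 17 of 39 and 27 of 49 of the 8q peaks, or 34.4%, 50.4%, 43.6% and 55.1%. They held more of the tags: 89.9%, 91.5%, 92.4% and 90.4% of all tags in 8q peaks. The pair in 8q24 alone held 20.4%, 30.4%, 28.2% and 36.7% of the peaks and 63.3%, 52.3%, 66.9% and 62.7% of the tags.

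Peaks inside and outside the stretches differed in length, tags and fold, in part by construction, because fold is divided by the background that defines a stretch. In the 8q24 pair the median peak was 1325 and 2110 bp long, held 102 and 233 tags and had a fold enrichment of 4.20 and 3.73. Outside all 5 stretches the median was 254 bp, 11 tags and 10.37-fold, close to the 235 bp, 10 tags and 10.52-fold of 8p. Within the stretches the fold ran from 2.51 to 7.37, and outside them from 6.20 to 47.64. Length ran from 320 to 6505 bp inside and from 157 to 485 bp outside, and tags from 20 to 863 and from 9 to 107, so the ranges overlapped at their edges.

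**Figure D2:**
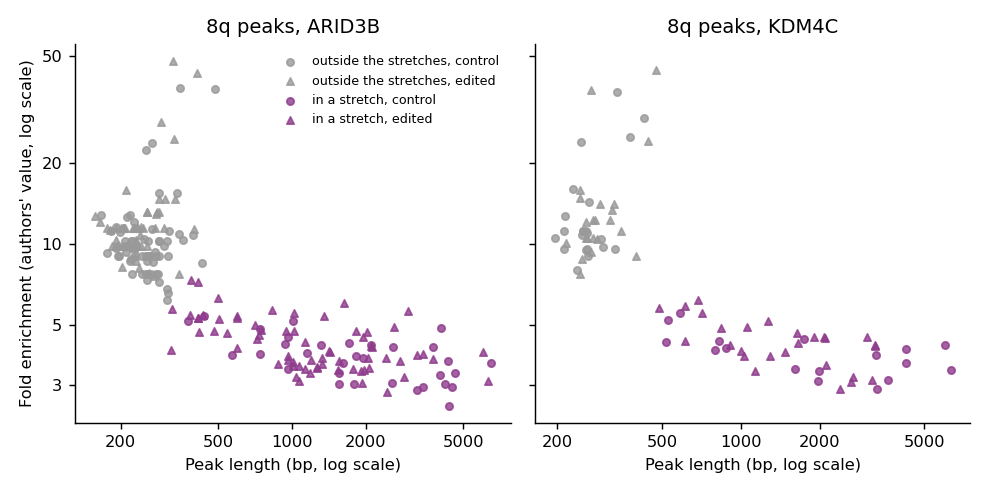
Peak length (x axis, bp, log scale) against the authors' fold enrichment (y axis, log scale) for 8q peaks of the ARID3B (left) and KDM4C (right) libraries. Points are peaks, circles for control and triangles for edited cells, purple inside and grey outside the 5 stretches of raised background; purple points run to long lengths at folds of 2.51 to 7.37, and grey points stay under 500 bp.

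Peaks with a background of 2 or more were also left out on all arms, a cut chosen after these values were seen. It takes out 34.4%, 51.1%, 43.6% and 57.1% of the 8q peaks. On the other arms it takes out 10.5%, 9.64%, 16.5% and 11.4% of peaks whose background was found. The fall of 8q against the other arms therefore follows from the cut, after which its density lay below theirs. The ratio to the other arms was then 0.770 (0.587 to 0.993) and 0.540 (0.416 to 0.689) for ARID3B in control and edited cells and 0.869 (0.541 to 1.33) and 0.517 (0.319 to 0.795) for KDM4C. The density of 8q over that of 8p became 1.54 (0.878 to 2.86), 0.861 (0.554 to 1.37), 0.809 (0.376 to 1.85) and 0.606 (0.294 to 1.29), so no list then differed between the arms beyond counting error. On 8p the ratio to the other arms was 0.5, 0.627, 1.08 and 0.853, with every 8p peak retained. The edited to control ratio of ARID3B peak numbers on 8q went from 1.45 to 1.08 (0.752 to 1.56). Within the first stretch of the 8q24 pair that ratio was 2.5 (12 and 30 peaks, 1.24 to 5.36), and within the stretch at the lower bound of 8q 4.33 (3 and 13 peaks, 1.19 to 23.7). In the stretch that holds MYC it was 1.57 (7 and 11 peaks, 0.556 to 4.78), in the third stretch from the centromere 1.44 (9 and 13, 0.571 to 3.83), and the second had 1 peak in either. With KDM4C the intervals of all 5 stretches held 1. Neighbouring peaks of a stretch are not independent, so these intervals may be too narrow. In the first stretch of the 8q24 pair, ARID3B peaks had medians of 2329 bp and 196 tags in control cells. In edited cells they had 1138 bp and 88.5 tags. At the lower bound the medians were 4346 bp and 587 tags, against 1912 bp and 177 tags. Whether the numbers of peaks reflect how the caller divided a raised block was not tested.

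Windows of 5 Mb placed most of the unevenness of 8q in the same place. The arms were covered by 29 windows, 9 touching 8p and 20 touching 8q, with medians of 3, 3, 1 and 1 peaks. The window from 125 to 130 Mb, which holds MYC, had the most in every list: 22, 44, 14 and 20 peaks, or 23.7% (15.5 to 33.6), 32.6% (24.8 to 41.2), 35.9% (21.2 to 52.8) and 40.8% (27.0 to 55.8) of the 8q peaks. Of 441 full windows on the other arms, 6, 2, 3 and 1 had as many or more. The window from 85 to 90 Mb followed among full windows of the ARID3B lists with 11 and 17 peaks and had 2 and 5 in the KDM4C lists. The first 0.2 Mb of 8q, at its lower bound, held 3, 13, 2 and 4. In each KDM4C list 8 windows were empty, and 4 windows were empty in both: those from 95 to 100 and from 110 to 115 Mb and the partial windows at the ends of 8p.

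At these numbers of peaks, no window was found to differ between the cells by more than the other arms did. A window was called when the interval of its edited to control ratio left out the ratio of the other arms, and 0 of 29 windows with ARID3B peaks and 0 of 25 with KDM4C peaks were called. On the other arms 5.7% of 491 and 0.922% of 434 windows were called by the same rule. The window from 125 to 130 Mb had a ratio of 2 (1.17 to 3.50) for ARID3B and 1.43 (0.686 to 3.06) for KDM4C. Most windows held too few peaks for such a call: the window from 15 to 20 Mb, with 2 peaks in each list, had an interval of 0.0725 to 13.8.

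**Figure D3:**
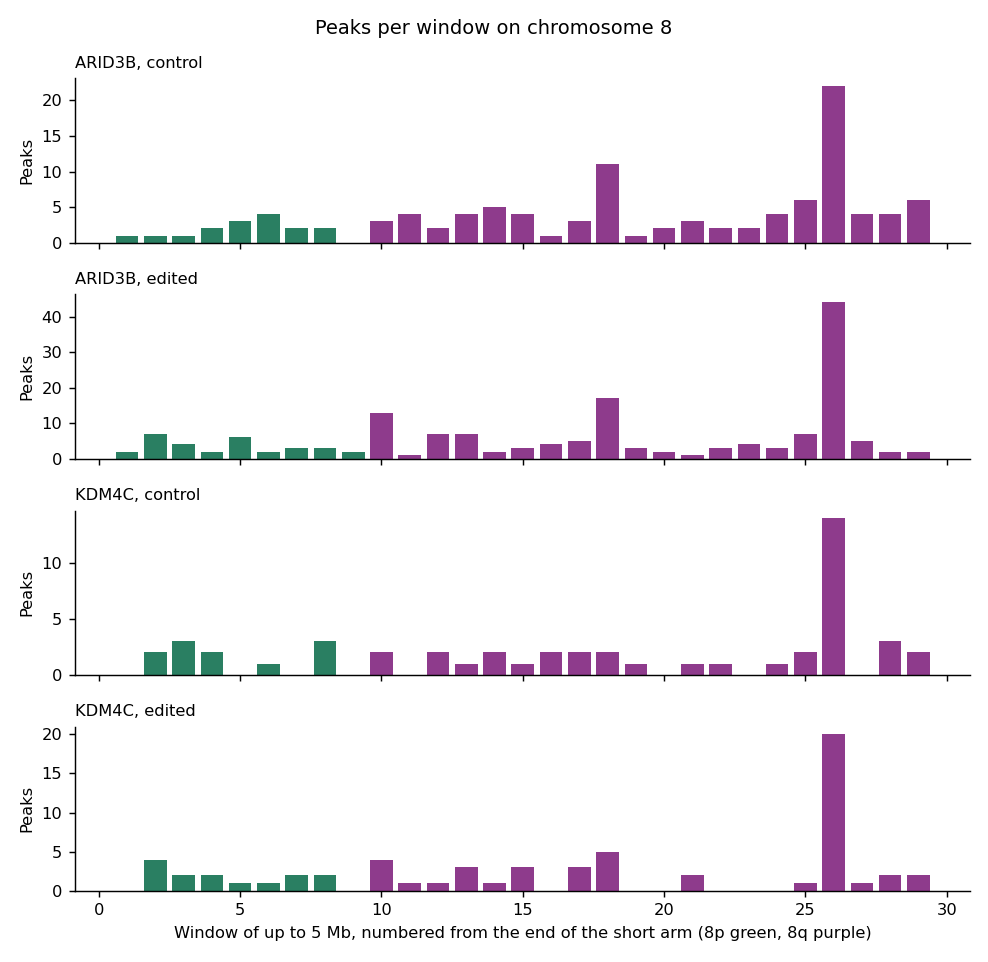
Number of peaks (y axis) in each window of up to 5 Mb along chromosome 8 (x axis, windows numbered from the end of the short arm; 8p green, 8q purple), one panel for each library with its own scale. Window 26, which runs from 125 to 130 Mb, is the highest in every panel, with 22, 44, 14 and 20 peaks.

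Around MYC peaks were dense in all 4 lists. Within 1 Mb on either side of 128.75 Mb there were 8, 13, 7 and 10 peaks, or 4, 6.50, 3.50 and 5 per Mb, which was 4.23, 4.49, 10.8 and 10.2 times the density of the other arms. In ARID3B control cells 4.23 became 2.76 (0.894 to 6.44) with peaks within 10 kb joined. Within 5 Mb there were 25, 48, 15 and 21. Leaving out peaks with a background of 2 or more, the density within 1 Mb was 0.590 (0.0149 to 3.29), 0.765 (0.0926 to 2.76), 3.69 (0.447 to 13.4) and 1.15 (0.0291 to 6.43) times that of the other arms, and all 4 intervals then held 1. That cut was chosen after these values were seen. It takes out every peak of the stretch that holds MYC, where the lowest background was 5.04, so the drop follows from the cut. The peaks near MYC were mixed in kind. In the stretch that holds it, scores ran from 50.73 to 399.6 and folds from 2.82 to 5.65. Narrow peaks lay outside that stretch. A single peak of 14.34-fold on 12 tags lay before it at chr8:127803221-127803485, and peaks of 22.3-fold to 28.3-fold lay beyond its distal end.

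The nearest peak to the MYC position was chr8:128750140-128751788, which starts 140 bp beyond it. It was called with KDM4C in edited cells alone and had 133 tags over 1649 bp, a fold of 4.30, a score of 53.4 and a background of 8.96. None of the other 3 libraries had a peak within 100 kb of the position. The ARID3B library of edited cells came nearest with chr8:128631335-128633790, 117 kb away on the centromere side, at 2.82-fold and a background of 11.63. In control cells the nearest KDM4C peak was chr8:128982352-128985984, 234 kb beyond the position (412 tags, 3.13-fold, background 11.69), and the nearest ARID3B peak was chr8:128394488-128399136, 353 kb before it (481 tags, 3.31-fold, background 8.93). These 4 peaks had scores of 53.1 to 70.95, and a peak called in 1 library at such a score is not a difference between the cells. In the order of RefSeq genes (GRCh38.p14, used for order only), the protein-coding neighbours of MYC are TRIB1, a pseudokinase, LRATD2 and POU5F1B, a retrogene of the pluripotency factor POU5F1, towards the centromere and GSDMC, a gasdermin, CYRIB and ASAP1 towards the end of the arm. The non-coding genes CASC11 and PVT1 lie directly beside MYC on either side. No annotation of GRCh37 was used here, so whether a peak lies in an exon, an intron or a promoter was not determined.

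Along 8q24 the raised background formed 2 separate blocks by the stretch rule used. A gap of 250 kb or a background of 3 or more divided 1 of them further. In the stretch before MYC the background ran from 2.16 to 10.28. The peaks at chr8:126601154-126607658, near its centromeric end, had 9.998, 8.62, 10.28 and 7.30 times the mean, the highest of the stretch in 3 libraries. In the KDM4C library of edited cells the highest was 7.84, at chr8:126779238-126781332. In the stretch that holds MYC it ran from 5.04 to 18.24. The region chr8:129361689-129366557, at its distal end, had 17.21, 9.89, 17.15 and 12.21 as the mean of its peaks. In edited cells single peaks elsewhere in the stretch were as high: 14.47 at chr8:129353066-129356819 and 11.63 at chr8:128631335-128633790 with ARID3B, and 12.31 at chr8:128316489-128318602 with KDM4C. Between them, the single peak at chr8:127803221-127803485 (KDM4C, control cells) sat at the genome mean, with 12 tags and a fold of 14.34. At the next peaks beyond the distal end, chr8:129470395-129470853, the 4 libraries had 1.84, 1.45, 1.72 and 1.60.

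**Figure D4:**
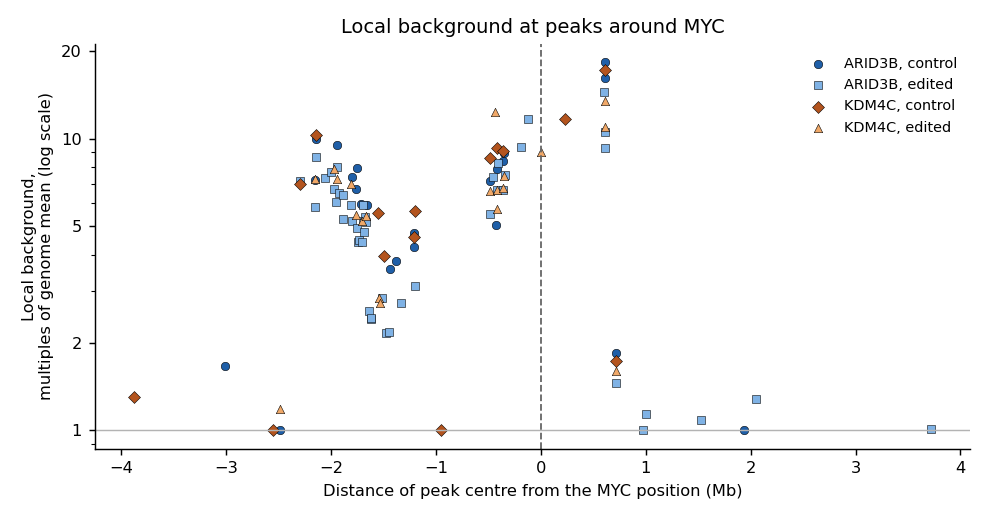
Local background at each peak (y axis, multiples of the library's genome mean, log scale) against the distance of the peak's centre from the MYC position (x axis, Mb), for peaks of the 4 libraries within 4 Mb. The groups of raised values, 2.16 to 10.28 and 5.04 to 18.24, are flanked on both sides by peaks below 2.

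At regions called in both kinds of cell, the relative background of the 8q24 pair was lower in edited cells. With the ARID3B antibody it was lower at 10 of 10 such regions, with a median of 7.88 in control and 6.25 in edited cells and edited to control ratios of 0.575 to 0.862 (median 0.782). With the KDM4C antibody it was lower at 5 of 5, with medians of 9.29 and 6.76 and ratios of 0.667 to 0.771 (median 0.712). The regions overlap between the antibodies and neighbour each other, so they are not independent. On the other arms, regions with a background of 2 or more in both cells went the opposite way in most cases: 23 of 107 were lower in edited cells with ARID3B (median ratio 1.14) and 10 of 59 with KDM4C (1.18). Those regions had lower backgrounds, with control medians of 3.09 and 3.56. They are therefore not matched in level to the 8q24 pair, and a difference particular to 8q24 was not tested. Outside every stretch, the shared region at chr8:129470395-129470853 was lower in edited cells too, from 1.84 to 1.45 with ARID3B and from 1.72 to 1.60 with KDM4C. No test was possible with 1 library a group.

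The other 8q stretches did not share 1 direction. At the lower bound of 8q the background was lower in edited cells at 3 of 3 ARID3B regions (12.77 and 9.31, median ratio 0.737) and at the 1 KDM4C region (11.5 and 9.53). In the third stretch from the centromere it was lower at 3 of 7 ARID3B regions (median ratio 1.06, range 0.882 to 1.18), and the 1 KDM4C region had 2.94 and 3.23. In the second, the single shared region had 3.45 and 4 with ARID3B and 3.01 and 3.58 with KDM4C, higher in edited cells with both antibodies.

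The values above count the tags of the peak itself, which the caller includes in its 10 kb. With the peak's own tags taken out, the edited to control ratio at 8q24 was below 1 at 8 of 9 ARID3B regions (median 0.781, highest 1.66) and at 4 of 4 KDM4C regions (median 0.820), against medians of 1.16 and 1.12 on the other arms. Peaks called in 1 library alone did not all go this way: in the stretch that holds MYC, the KDM4C peak of edited cells at chr8:128316489-128318602 had 12.31 and the ARID3B peak of control cells at chr8:128326281-128327845 had 5.04. DNA copy number was not analysed here.

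**Figure D5:**
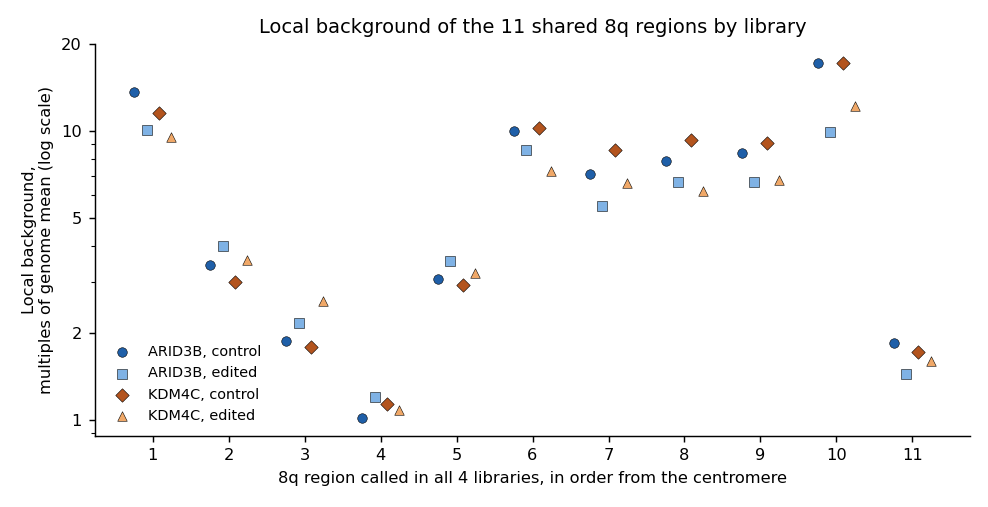
Local background (y axis, multiples of the library's genome mean, log scale) in the 4 libraries at the 11 regions of 8q called in all of them (x axis, numbered from the centromere). Regions 6 to 10, in the 8q24 pair, region 1, at the lower bound of 8q, and region 11, outside every stretch, have both edited libraries below the control library of the same antibody; region 10 reads 17.21, 9.89, 17.15 and 12.21.

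The share of peaks called again in the other kind of cell was higher on 8q than on 8p with both antibodies, though on 8p it rested on 1 peak in each list. With ARID3B, 1 of 16 control peaks on 8p and 31 of 93 on 8q (33.3%, 23.9 to 43.9) were overlapped by a peak of edited cells, against 25.2% of the whole list and 13.5% on the other arms. In the reverse direction it was 1 of 31 and 32 of 135 (23.7%, 16.8 to 31.8), against 17.3% of the list and 8.99% on the other arms. With KDM4C, 1 of 11 and 12 of 39 (30.8%) control peaks were called again in edited cells, against 36.7% of the list and 19.8% on the other arms. In reverse it was 1 of 14 and 13 of 49 (26.5%, 14.9 to 41.1), against 27.7% and 12.3%. The 8q shares were above those of the other arms beyond counting error except for the KDM4C control peaks (17 to 47.6), and the arms of chromosome 8 had intervals apart from each other only for the ARID3B peaks of edited cells (0.0816 to 16.7 on 8p).

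Much of the repeat calling on 8q took place in the stretches. In part this follows from the stretch rule, which pooled the peaks of all 4 lists and asked for 5 or more. A place called in several libraries therefore helps to make a stretch, and the longer peaks of the stretches overlap more easily. Inside the stretches 21 of 32 ARID3B control peaks were called again in edited cells (65.6%, 46.8 to 81.4), and outside them 10 of 61 (16.4%, 8.15 to 28.1). Of the ARID3B peaks of edited cells, 23 of 68 inside (33.8%, 22.8 to 46.3) and 9 of 67 outside (13.4%, 6.33 to 24) were called in control cells. For KDM4C control peaks the numbers were 8 of 17 (47.1%) and 4 of 22 (18.2%), and for those of edited cells 9 of 27 (33.3%) and 4 of 22 (18.2%), with intervals that overlapped. Among ARID3B control peaks on 8q, 11 of 12 that scored at least 100 had a partner in edited cells, as did 4 of 53 that scored under 60. For ARID3B peaks of edited cells these were 14 of 16 and 3 of 78. KDM4C peaks had 5 of 7 and 3 of 20 in control cells and 6 of 7 and 1 of 23 in edited cells. Shares by score were not taken on the other arms, so a rise with score particular to 8q is not shown.

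Between antibodies, 17 of 39 KDM4C peaks on 8q were overlapped by an ARID3B peak in control cells (43.6%, against 39.3% of the list) and 24 of 49 in edited cells (49.0%, against 35.2%). As a share of the ARID3B peaks this was 18 of 93 (19.4%, against 17.8%) and 25 of 135 (18.5%, against 14.3%). On the other arms the KDM4C shares were 22.1% and 18.5% and the ARID3B shares 7.25% and 6.40%, below those of 8q by more than the intervals. Inside the 8q stretches the KDM4C shares were 64.7% and 70.4% and the ARID3B shares 37.5% and 29.4%. Outside them the KDM4C shares were 27.3% (10.7 to 50.2) and 22.7% (7.82 to 45.4). The ARID3B shares outside were 9.84% (3.70 to 20.2) and 7.46% (2.47 to 16.6). Outside the stretches every interval held the share of the other arms. As with repeat calling, the contrast between inside and outside follows in part from the stretch rule. On 8p 1 peak of each list was shared in either kind of cell, so the overlap of the antibodies there rested on 1 place each time. In edited cells, where ARID3B was the target of Cas9, the share of KDM4C peaks on 8q that an ARID3B peak overlapped differed from that in control cells by less than the intervals (34.4 to 63.7 and 27.8 to 60.4).

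Merging the peaks of the 4 lists gave 67 regions on 8p and 236 on 8q. On 8p 64 regions were called in 1 library, 1 in a pair, 2 in 3 libraries and 0 in all 4. The 2 regions called in 3 were chr8:9424147-9424462, with folds of 18.01 with ARID3B in edited cells and 19.12 and 17.53 with KDM4C in control and edited cells, and chr8:36347629-36348028, with folds of 12.50, 16.98 and 10.67 in the first 3 libraries. On 8q 196 regions were called in 1 library and 11 in all 4 (4.66%, 2.35 to 8.19), against 1.85% of 6854 regions on the other arms. Of the 11, 8 lay in the stretches and 5 in the 8q24 pair. A region called in all 4 libraries brings peaks that help to make a stretch, so this is partly set by the stretch rule.

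By fold, which is divided by the background, the highest shared regions lay outside the stretches. At chr8:70602132-70602617 the folds were 37.6, 43.2, 36.5 and 44.1 on 91, 107, 74 and 100 tags, and the summit was 55, 57, 41 and 65 tags high. At chr8:82754585-82754940 the folds were 37.9, 47.6, 23.8 and 37.3 on 46, 56, 22 and 32 tags. The third was chr8:129470395-129470853, beyond the stretch that holds MYC, with 22.3, 28.3, 24.9 and 24.1 on 35, 31, 35 and 26 tags. They were the only 8q regions in all 4 libraries outside the stretches. By score, 4 of the stretch regions, led by chr8:129361689-129366557 with 399.6, exceeded the third of these, which had 208.2. The next by their lowest fold were in stretches: chr8:58118148-58118886 with 4.84, 4.10, 5.52 and 5.88, chr8:128268847-128273117 with 4.15, 5.65, 4.08 and 4.50, and chr8:128388349-128392036 with 4.13, 4.19, 3.86 and 4.67.

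ARID3B was called without KDM4C in both kinds of cell at 8 regions, all on 8q, and KDM4C without ARID3B at 0. The ARID3B lists are the longer ones, and on the other arms 1.65% of 6854 regions were of the first kind and 0.0438% of the second, against 3.39% (1.47 to 6.57) of the 236 regions of 8q for the first. Of the 8, 6 lay in the stretches, which is again partly set by the stretch rule. The only one with a score of 100 or more was chr8:86796239-86797224, with folds of 3.42 and 4.73 on 79 and 86 tags and a background of 5.26 and 5.19. Outside the stretches were chr8:122213367-122213942, with 12.54 and 14.73 on 34 and 14 tags, and chr8:142955221-142955712, with 11.18 and 7.75 on 19 and 17 tags.

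Most peaks called in control or edited cells alone were near the limit of calling. On 8p the highest fold among 15 ARID3B peaks called in control but not edited cells was 11.56 on 14 tags (chr8:9120653-9120937). Among the 30 in the reverse direction it was 18.01, at chr8:9424155-9424431, where KDM4C was called in both kinds of cell, and then 14.73 on 12 tags (chr8:16565307-16565536). With KDM4C the highest on 8p were 12.74 on 10 tags in control (chr8:12463663-12463866) and 14.14 on 11 tags in edited cells (chr8:15958725-15958998). None of the 12 single-cell 8p peaks named by the selection rule held more than 16 tags.

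By fold, which is divided by the background, the largest such difference on 8q was with KDM4C at chr8:66563759-66564185. It had a fold of 29.44 on 29 tags and a score of 168.8 in control cells and no peak in edited cells. ARID3B peaks were called there in both. In the reverse direction KDM4C peaks of edited cells at chr8:88673543-88673785 (15.78-fold, 11 tags) and chr8:60136500-60136742 (14.80-fold, 13 tags) lay where ARID3B was called in both kinds of cell. Next to the second of these, without overlap, a KDM4C peak of control cells was called at chr8:60135817-60136147 (9.56-fold, 17 tags). With ARID3B the highest fold in control cells alone was 15.50 on 19 tags, at chr8:83736301-83736641. In edited cells alone the highest folds were 14.73 on 12 tags at both chr8:63190603-63190889 and chr8:106034795-106035097. Some peaks of 1 kind of cell in the stretches had lower folds but more tags. With ARID3B, chr8:129353066-129356819 had 582 tags in edited cells (3.73-fold, score 134.6) and chr8:127092845-127097051 had 327 in control cells (3.03-fold, 99.37). With KDM4C, chr8:49922021-49928034 had 549 tags in control cells (4.21-fold, 151.5) and chr8:128316489-128318602 had 249 in edited cells (3.56-fold, 115). The absence of a peak from a list says that the place did not pass the caller's cutoff in that library, not that it held no tags.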

How the data were processed

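The files were 4 peak lists, 1 per library, from MACS 1.4.2, run on each library alone and with no control library. Per the file headers, the cutoff on the p-value was 1e-05, the genome was taken as 2.7 Gb, the local window as 10 kb, and 1 tag was kept per position. This limit on tags holds down counts where tags are densest. BWA 0.7.12, bcl2fastq 2.1.5 and GRCh37 stand in the submitters' processing notes. The deposited tag counts are whole tags per peak, not normalized. The deposited fold enrichment is a ratio of summit height to local background, and the deposited score is 10 times the negative log10 of the p-value. No count model was used, since peaks were called per library and each group had 1 library.

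A peak was counted on an arm when it lay wholly inside the bounds, and was placed in windows and spans around MYC by its centre. Arms were trimmed by 3 Mb at the ends and around the centromere, and the other 37 autosomal arms in the same way. Ratios have exact conditional binomial intervals, numbers exact Poisson intervals and shares Clopper-Pearson intervals (95%). Overlap means at least 1 shared base. Background is the Poisson mean at which more tags than counted have the listed p-value, divided by the genome mean, and the implied summit heights were whole within 0.05 tags for 93.5% to 97.2% of peaks. Overlap shares were tested on shifted peaks, and the background and the coverage of the ratio interval on simulated data. The other steps were not tested in this way. Regions were named by rule: per arm the 6 regions in all 4 libraries with the highest lowest-fold, per arm and antibody the 3 highest-fold peaks of 1 kind of cell, regions of 1 antibody with a score of at least 100, and the peaks nearest to MYC. Members and lists were chosen with earlier results of these data known. Python 3.11.15 with pandas 2.3.3 and scipy 1.17.1 was used. Alternatives covered score, arm ends, joining of peaks, overlap, windows and spans.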

Additional observations from a re-analysis of the deposited data

How the results depend on the processing

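In all, 152 of 238 alternative values stayed within the counting interval of the main value and on the same side of 1 as a call (counts within 1.5 times). No paired analysis was possible because each group had 1 library, and no library could be left out. No call ended with regions in all 4 libraries left out, all other list rows as comparison, or 50% overlap of the shorter peak. Every value run with these stayed within its interval. Other windows left the number of called windows at 0. The number of 8q stretches went from 5 to 6 with a background of 3 or more and with a gap of 250 kb, and stayed at 5 with 1 Mb. The first of the 8q24 pair was divided by the higher background, and the stretch that holds MYC by the smaller gap. Whole arms ended the calls of the 8q to 8p ratio in ARID3B control cells (1.43) and of the ARID3B edited to control ratio on 8p (1.34), took the KDM4C control 8q to 8p ratio to 0.898 and 8p over other arms in ARID3B control cells to 0.713. The cause of a shift was not tested. The order of lists is ARID3B control, ARID3B edited, KDM4C control, KDM4C edited.

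Leaving out peaks with a background of 2 or more, chosen after seeing the data, ended the call of the 8q to 8p ratio in both ARID3B lists. That ratio became 1.54 in control cells and 0.861 (0.554 to 1.37) in edited cells, and 0.606 in KDM4C edited cells. The same cut moved 8q over other arms to 0.770, 0.540, 0.869 and 0.517, and the ARID3B edited to control ratio on 8q to 1.08, or 0.701 over other arms. Density near MYC over other arms became 0.590, 0.765, 3.69 and 1.15 within 1 Mb and 0.708, 0.535, 1.48 and 0.691 within 5 Mb. The value crossed to below 1 in both ARID3B lists at either span and in KDM4C edited cells within 5 Mb. All the intervals held 1, so every call near MYC ended and no shortage was shown. Shares of 8q peaks called again became 14.8% and 12.1% for ARID3B (control peaks, then edited), 14.3% and 13.6% for KDM4C edited and control peaks, 27.3% and 19% for KDM4C peaks overlapped by ARID3B (control, edited cells) and 9.84% and 6.06% for ARID3B peaks overlapped by KDM4C.

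A score of at least 60 gave 8p over other arms 0.164 in ARID3B control cells and 8q over 8p 8.09 and 2.88 for ARID3B. For 8q over other arms it gave 1.32, 1.32, 2.15 and 1.96, and the KDM4C intervals then lay above 1. The ARID3B edited to control ratio on 8p became 4 (0.798 to 38.7), or 2.80 over other arms (0.557 to 27.2). That on 8q became 1.43 (0.935 to 2.19), and the call ended on either arm. Near MYC the density over other arms became 10.8, 26.4 and 21.2 within 1 Mb (ARID3B control and both KDM4C lists) and 5.26, 4.99, 9.50 and 8.46 within 5 Mb. Shares called again on 8q became 62.5% and 43.9% for ARID3B, 68.4% and 73.1% for KDM4C peaks overlapped by ARID3B and 35% and 35.1% in reverse, and 4 of the shares on 8p became 0%.

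A score of at least 100 left 0 peaks on 8p in 3 lists. The call of 8p over other arms then ended in the ARID3B lists (0 to 1.82 and 0 to 1.63). For 8q over other arms it gave 2.36, 2.82, 2.25 and 2.02, with the ARID3B intervals above 1 and the KDM4C ones holding 1. The ARID3B edited to control ratio on 8q became 1.33 (0.592 to 3.09), and that call ended. Shares on 8q became 83.3% and 62.5% for ARID3B, 71.4% in either direction for KDM4C, 85.7% in either kind of cell for KDM4C peaks overlapped by ARID3B and 50% and 37.5% in reverse, and both shares of KDM4C control peaks left on 8p were 0%. With centres within 200 bp, shares on 8q became 22.6% and 14.8% for ARID3B, 25.6% and 28.6% for KDM4C peaks overlapped by ARID3B and 10.8% and 10.4% in reverse, and 2.30% of 8q regions were in all 4 libraries. Joining peaks within 10 kb gave 8q over other arms 0.792 in ARID3B edited cells and ended 3 calls: the 8q to 8p ratio in ARID3B edited cells (1.32), the ARID3B edited to control ratio on 8q (1.29) and the density within 1 Mb of MYC in ARID3B control cells (2.76). A span of 10 Mb around MYC gave 2.04 and 2.35 in edited cells (ARID3B, KDM4C). Taking the peak's own tags out of the background gave a median edited to control ratio of 0.820 for KDM4C at 8q24.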
